A study of Mus musculus with 8 samples.

Results

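Lipoprotein lipase and its partners carry fatty acids from circulating triglycerides into brown adipose tissue (BAT), and 10 genes of this route were followed in WT and db/db mice. They were taken by name for their roles in lipase action, fatty acid transport and fatty acid binding (Lpl, Gpihbp1, Angptl4, Lmf1, Cd36, Slc27a1, Vldlr, Fabp3, Fabp4 and Fabp5), and are 10 of the 31053 genes in the count table. All 10 passed the filter on low counts, as did 9264 genes in the whole table. The study asked how BAT differs between lean and diabetic mice, using bulk RNA-seq of 4 WT and 4 db/db samples. WT mice were of the C57BL6/J strain, and the methods text names the db/db mice as B6.BKS(D)-Leprdb/J. The db/db mice are homozygous for a mutation of the leptin receptor and become hyperphagic, obese and diabetic. The resource list of the methods gives them by a stock number without a strain name, so their strain rests on the methods text. All 8 samples came from males of 8 weeks on a normal diet whose tissue was collected after a fast, and no treatment is listed. The methods text gives different suppliers for WT and db/db mice while its list of resources gives the same one, so a difference of supplier cannot be told apart from genotype if there was one.

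Lipoprotein lipase (LPL) is made by adipocytes and muscle cells, folds in the endoplasmic reticulum with the help of LMF1, and is carried to the capillary wall by GPIHBP1 of endothelial cells. There it cleaves triglycerides of chylomicrons and very-low-density lipoproteins, while ANGPTL4 inactivates it. The released fatty acids enter cells with the help of CD36 and fatty acid transport proteins, and are held in the cytosol by small fatty acid binding proteins. In BAT this supply feeds heat production and is raised by cold.

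The libraries held between 2374079 and 3240074 counts, so that 3 counts, taken as the smallest detectable level, corresponded to between 0.902 and 1.33 CPM (counts scaled to a common TMM library size). Every one of the 10 genes lay above this level in all libraries, and together they took between 1.13% and 1.89% of the counts of a WT library and between 1.45% and 2.02% of a db/db library. The labels describe the material both as BAT and as its stromal vascular fraction, which should hold few adipocytes, but the adipocyte gene Adipoq stood at 1530 CPM in WT and 1910 CPM in db/db and the thermogenic gene Ucp1 at 2250 and 1430 CPM. The values are therefore described here as those of whole BAT. Lepr, the mutated gene, had 0 counts in all 8 libraries and could not be used to check the genotype labels.

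Of the 10 genes, 3 rose in db/db BAT (Fabp3, Fabp4 and Cd36), 3 fell (Lpl, Slc27a1 and Vldlr) and 4 did not pass the test (Gpihbp1, Angptl4, Lmf1 and Fabp5). With a skeletal muscle score, described below, as a further term in the model, only Fabp3 of the called genes still passed. That score shares much of its variation with genotype. Among all genes tested, 27.7% passed at the same threshold (adjusted p under 0.05, edgeR quasi-likelihood test), with 15.8% higher and 11.9% lower in db/db. In 5 of the 10 genes the 4 db/db values lay wholly above or wholly below the 4 WT values, which held for 28.1% of all genes tested. The median log2 fold change was 0.23 over the 10 genes and 0.01 over all genes tested. In bulk tissue, fewer cells of a type and less RNA per cell cannot be told apart.

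**Figure D1:**
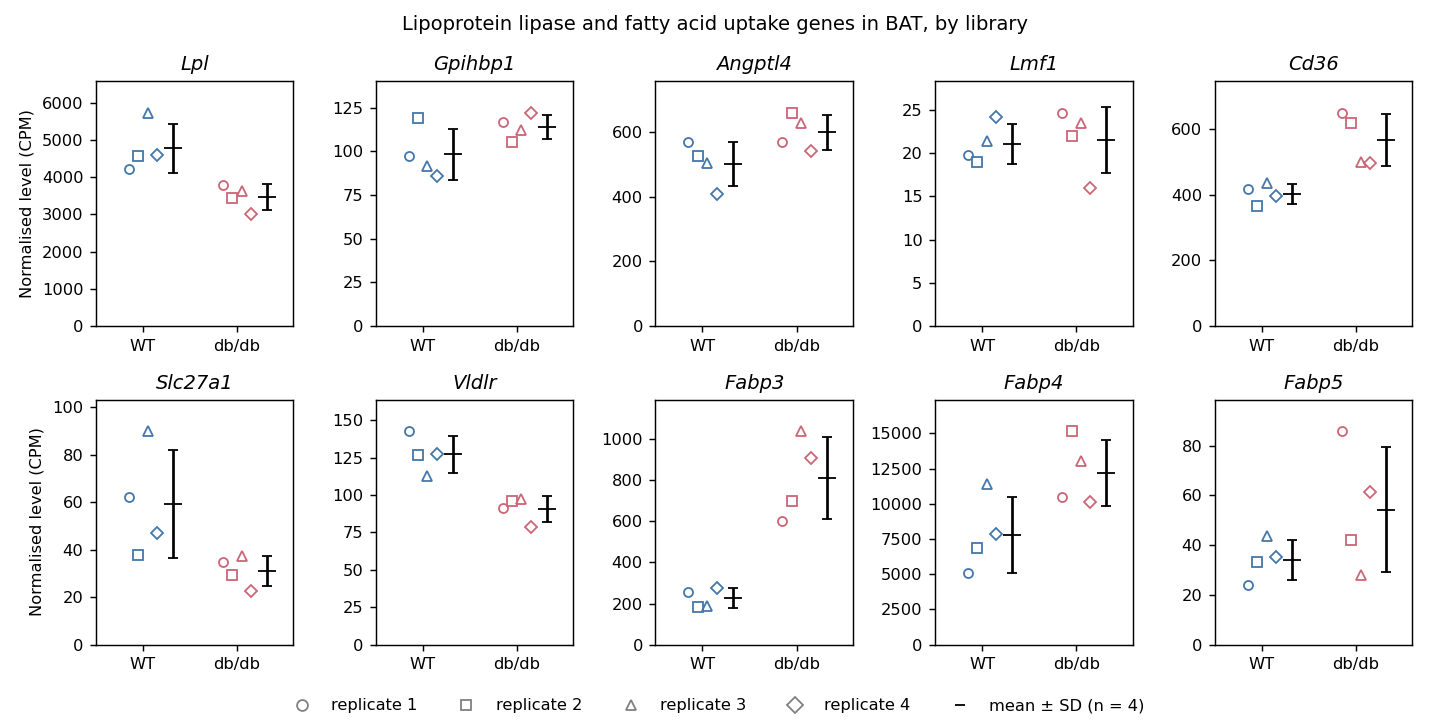
Normalised level (CPM, linear axes from 0) of the 10 genes in each of the 4 WT and 4 db/db libraries, with the symbol marking the replicate number and the black bar the mean ± SD of 4. Fabp3 and Cd36 were higher in all db/db libraries than in any WT library, and Lpl, Slc27a1 and Vldlr were lower.

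Lpl, the gene of the lipase itself, lies on chromosome 8 (chr8:68880491-68907448, GRCm38, plus strand). Its level was 4215, 4562, 5723 and 4600 CPM in WT replicates 1 to 4, and 3796, 3431, 3622 and 3005 CPM in db/db replicates 1 to 4. WT replicate 3 was the highest library, and no db/db library reached the lowest WT value. The mean fell from 4770 ± 655 CPM in WT to 3460 ± 340 CPM in db/db (SD, n = 4), a log2 fold change of -0.46 with a standard error of 0.14 (adjusted p = 0.0232, edgeR). The adjusted p rose to 0.0693 without WT replicate 3, to 0.0509 without db/db replicate 2 and to 0.0618 without db/db replicate 4, with the log2 fold change between -0.54 and -0.39 over the 8 fits that each left out a library. The principal transcript of Lpl also shares a stretch of at least 75 bases, at 95% identity or more, with 53 other genes, so its count is uncertain to the extent that reads from that stretch were assigned.

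Gpihbp1, Angptl4 and Lmf1 did not pass the test. Gpihbp1 (chr15:75596628-75599481, plus strand), which anchors LPL in capillaries, measured 97.12, 119.0, 91.69 and 85.74 CPM in WT and 116.7, 105.6, 112.1 and 122.0 CPM in db/db. The 2 genotypes overlapped, because WT replicate 2 exceeded 3 of the 4 db/db libraries, and the log2 fold change was 0.21 with a standard error of 0.14 (adjusted p = 0.265, edgeR). Angptl4 (chr17:33773750-33781830, minus strand), the fasting-induced inhibitor of LPL, measured 569.8, 527.1, 505.4 and 409.6 CPM in WT and 569.2, 660.1, 629.4 and 542.4 CPM in db/db. Its values overlapped as well, with 2 of 4 db/db libraries above every WT library, and its log2 fold change was 0.26 with a standard error of 0.13 (adjusted p = 0.174, edgeR). Lmf1 (chr17:25579085-25662826, plus strand), whose product lets the lipase mature, measured 19.83, 18.99, 21.42 and 24.19 CPM in WT and 24.67, 21.95, 23.49 and 16.00 CPM in db/db. The library with the least Lmf1 and the library with the most were both db/db, and the log2 fold change was 0.03 with a standard error of 0.20 (adjusted p = 0.933, edgeR), its sign changing under DESeq2, without the low-count filter, with a skeletal muscle score in the model and with a library left out. For these 3 genes the test did not separate the genotypes, which does not show that their levels were equal.

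Cd36, the gene of the membrane receptor that binds long-chain fatty acids and oxidised lipoproteins and is made by adipocytes, capillary endothelium and macrophages, lies on chromosome 5 (chr5:17781690-17888801, minus strand). It measured 417.2, 363.8, 434.8 and 395.2 CPM in WT and 648.0, 618.8, 498.2 and 495.9 CPM in db/db. The db/db libraries formed a higher pair (replicates 1 and 2) and a lower pair (replicates 3 and 4), both above all WT libraries. The mean rose from 403 ± 30.6 to 565 ± 79.6 CPM, a log2 fold change of 0.49 with a standard error of 0.13 (adjusted p = 0.0108, edgeR). Without WT replicate 2 the log2 fold change was 0.43 and the adjusted p 0.0506.

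Slc27a1, the gene of fatty acid transport protein 1, which takes up fatty acids and activates them with coenzyme A, lies on the same chromosome as Lpl (chr8:71568882-71587302, plus strand). It measured 62.32, 37.56, 89.81 and 47.12 CPM in WT and 34.60, 29.27, 37.23 and 22.69 CPM in db/db. WT values spread widely, and the lowest of them, in replicate 2, was close to the highest db/db value, in replicate 3. The mean fell from 59.2 ± 22.8 to 30.9 ± 6.42 CPM, a log2 fold change of -0.94 with a standard error of 0.24 (adjusted p = 0.00616, edgeR). Its principal transcript shares a stretch of at least 75 bases with 10 other genes, so part of its count is uncertain. Among these, Slc3a2 held between 95 and 195 counts in a library and Atf7ip between 45 and 115, against 61 to 239 for Slc27a1.

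Vldlr, the gene of the receptor that binds triglyceride-rich lipoproteins and presents them to LPL, lies on chromosome 19 (chr19:27216484-27254231, plus strand). It measured 142.4, 126.6, 112.4 and 127.3 CPM in WT and 91.15, 96.08, 97.52 and 78.49 CPM in db/db. Every db/db library lay below every WT library. The mean fell from 127 ± 12.3 to 90.8 ± 8.65 CPM, a log2 fold change of -0.49 with a standard error of 0.13 (adjusted p = 0.0108, edgeR), and the gene passed in all 8 fits that left out a library. It also passed under 9 of 10 other settings, but not with the skeletal muscle score in the model (adjusted p = 0.252, edgeR).

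Fabp3, the heart-type fatty acid binding protein, which supplies fatty acids to mitochondria in heart, oxidative muscle and BAT, showed the largest change of the 10 genes. It lies on chromosome 4 (chr4:130308595-130315463, plus strand) and measured 257.8, 181.5, 186.8 and 276.3 CPM in WT and 602.0, 698.6, 1039 and 909.9 CPM in db/db. The lowest db/db library was above the highest WT library by a wide gap. The mean rose 3.60-fold, from 226 ± 48.5 to 812 ± 198 CPM, a log2 fold change of 1.85 with a standard error of 0.19 (adjusted p = 1.37e-06, edgeR). Fabp3 passed in every fit that left out a library and under all 10 other settings, with log2 fold changes from 1.70 to 2.03. Its exons share 81 bases with Zcchc17 and 80 with Gm10570 on the opposite strand, and it is not known if strand was used in counting. Zcchc17 held between 69 and 215 counts in a library and Gm10570 at most 1, against 430 or more for Fabp3, which also has a near-identical copy, Fabp3-ps1.

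Fabp4, the adipocyte fatty acid binding protein, was counted most of the 10 genes. It lies on chromosome 3 (chr3:10204088-10208576, minus strand) and measured 5070, 6832, 11411 and 7841 CPM in WT and 10465, 15139, 13010 and 10157 CPM in db/db. WT replicate 3 exceeded db/db replicates 1 and 4, so the genotypes overlapped. The mean rose from 7790 ± 2670 to 12200 ± 2340 CPM, a log2 fold change of 0.65 with a standard error of 0.21 (adjusted p = 0.0309, edgeR). The gene passed in 3 of the 8 fits that left out a library and missed the threshold without WT replicate 1 (0.122), 2 (0.0945) or 4 (0.0795) or db/db replicate 2 (0.105) or 3 (0.0705), given as adjusted p-values.

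Fabp5, the epidermal-type fatty acid binding protein, also made by macrophages and endothelial cells, lies 187480 bases from Fabp4 (chr3:10012548-10016607, plus strand). It measured 23.88, 33.34, 43.59 and 35.23 CPM in WT and 85.74, 41.99, 27.93 and 61.38 CPM in db/db. The db/db libraries spread more widely than those of WT, with a coefficient of variation of 46.2% against 23.8%, and db/db replicates 2 and 3 lay within the WT range. The mean was 34.0 ± 8.09 CPM in WT and 54.3 ± 25.1 CPM in db/db, a log2 fold change of 0.68 with a standard error of 0.27 that did not pass (adjusted p = 0.0691, edgeR). With each library left out in turn, its log2 fold change ran from 0.36 without db/db replicate 1 (adjusted p = 0.3, edgeR) to 0.88 without db/db replicate 3 (adjusted p = 0.0123, edgeR), and it passed in 1 of these 8 fits, the last named. The gene has near-identical copies, Gm14328 and Gm6166, which leave its count uncertain.

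**Figure D2:**
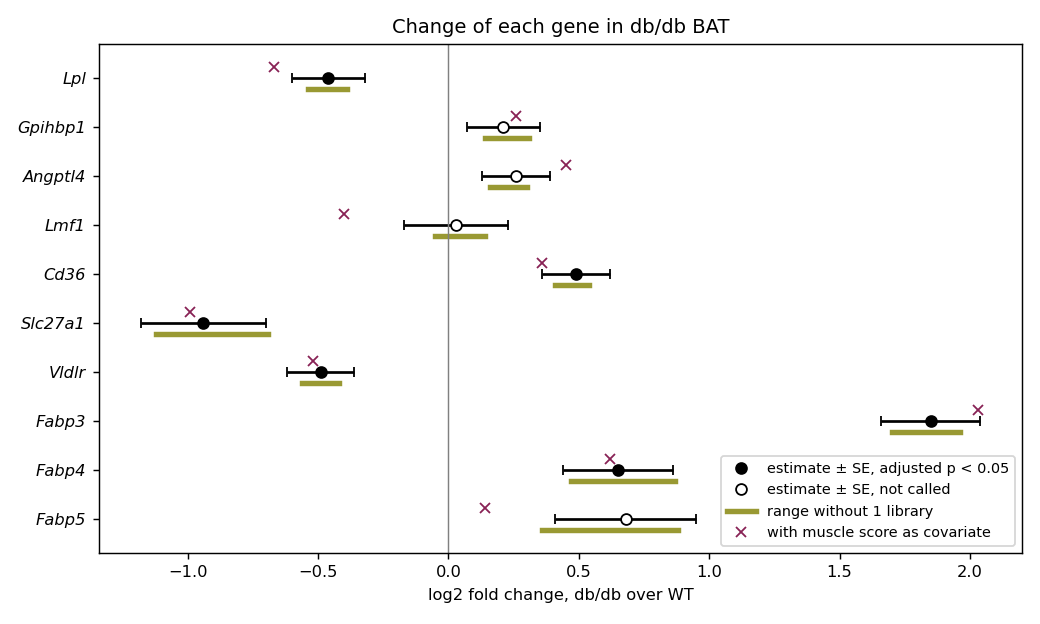
Log2 fold change of db/db over WT for each of the 10 genes (edgeR estimate ± SE, filled where the adjusted p was under 0.05), with the range over the 8 fits that left out a library and the estimate with a skeletal muscle score in the model. Fabp3 stood apart at 1.85, and Lmf1 was the only gene of the 10 whose range over those fits crossed 0.

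Per kilobase of principal transcript, the order of levels differed from that of the raw values. Fabp4 led in WT at 8690 CPM per kilobase, followed by Lpl at 1160, Fabp3 at 274, Angptl4 at 152, Gpihbp1 at 119 and Cd36 at 118. Fabp5 at 34.5, Slc27a1 at 21.2, Vldlr at 16.0 and Lmf1 at 11.4 formed the low end. In db/db, Fabp4 stood at 13600 CPM per kilobase, and Fabp3 at 987 moved above Lpl at 842. Reads are taken here to cover the whole transcript, which the sources do not state for these libraries, and a library that samples one end of each transcript would not need this division.

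The share of each binding protein within the family was set by Fabp4. Of the summed Fabp3, Fabp4 and Fabp5 counts, Fabp4 made up 96.5 ± 1.38% in WT libraries and 93.2 ± 1.76% in db/db libraries (SD, n = 4). Fabp3 made up 4.82%, 2.58%, 1.60% and 3.39% in WT replicates 1 to 4, and 5.40%, 4.40%, 7.38% and 8.18% in db/db replicates 1 to 4. WT replicate 1 thus exceeded db/db replicate 2, although Fabp3 itself did not overlap. Fabp5 remained the minor member at 0.431 ± 0.0417% in WT and 0.446 ± 0.264% in db/db.

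The starts of the called genes are shown because these genes moved in different directions. RefSeq (GRCm38.p6) gave promoter windows for 5 of the 10 genes, 8 windows in all, and 1 window of each of the 4 called genes among them is printed in the direction of the gene, leaving out bases inside annotated exons. The windows are chr4:130308488-130308594 for Fabp3, chr5:17835897-17836146 (minus strand) for Cd36, chr8:71568621-71568870 for Slc27a1 and chr19:27216234-27216483 for Vldlr, the other 3 on the plus strand, and for Cd36 the direction is that of the table, since no annotated transcript could be matched to it. Capitals mark matches, on either strand, to the nuclear receptor half-site AGGTCA, to the core of the CAAT box written CCAAT, to the GC box written GGGCGG or to the TATA box written TATAAA.
Fabp3: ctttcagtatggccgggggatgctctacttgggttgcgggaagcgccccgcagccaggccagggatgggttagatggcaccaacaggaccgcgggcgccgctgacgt
Cd36: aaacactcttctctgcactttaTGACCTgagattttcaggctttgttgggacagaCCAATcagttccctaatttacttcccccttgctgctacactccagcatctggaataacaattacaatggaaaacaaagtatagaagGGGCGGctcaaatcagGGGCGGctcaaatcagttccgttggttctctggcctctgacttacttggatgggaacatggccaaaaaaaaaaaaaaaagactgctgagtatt
Slc27a1: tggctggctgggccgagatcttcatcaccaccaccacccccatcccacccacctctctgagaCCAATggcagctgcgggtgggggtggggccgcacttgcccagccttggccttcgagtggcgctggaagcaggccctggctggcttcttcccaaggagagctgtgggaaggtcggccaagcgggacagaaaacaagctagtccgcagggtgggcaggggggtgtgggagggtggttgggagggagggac
Vldlr: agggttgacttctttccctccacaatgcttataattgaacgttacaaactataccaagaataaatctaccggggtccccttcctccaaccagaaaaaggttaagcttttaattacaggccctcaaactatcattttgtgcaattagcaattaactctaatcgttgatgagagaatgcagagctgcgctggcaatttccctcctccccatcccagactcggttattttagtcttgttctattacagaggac

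Cd36 held AGGTCA on its other strand (read as TGACCT) at -228 from the start, CCAAT at -195 and GGGCGG at -109 and -93. The printed Slc27a1 window held CCAAT at -188, and the Fabp3 window and the printed Vldlr window held none of these motifs. Slc27a1 and Vldlr have further windows with motifs: in Slc27a1, 1 with CCAAT at -128 and GGGCGG at -159, -48 and -17 and 1 with GGGCGG at -139, and in Vldlr, 1 with CCAAT at -78 and GGGCGG at -42. Among 32851 RefSeq promoters searched over the same 250 upstream bases, 14.0% held AGGTCA, 33.8% CCAAT, 32.7% GGGCGG and 12.4% TATAAA, and the motifs share no bases with each other in these windows. A direct repeat of the half-site with 1 base between was found in 0.0335% of promoters and in 0 of the 8 windows. These are letter matches and give no binding.

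To place the 10 genes, 68 other genes of lipase control, lipoprotein uptake and fatty acid transfer were read from the same fit. Of these, 46 passed the filter on low counts, 12 were higher in db/db, 8 were lower and 26 did not pass the test, which is 43.5% called against 27.7% of all genes tested, with a median log2 fold change of -0.02. By group, 8 of 12 tested genes of fatty acid transport and caveolae were higher and 1 was lower, whereas 4 of 8 acyl-CoA synthetases were lower and the other 4 did not pass. Of the 7 genes of endothelial fatty acid transfer and fatty acid receptors, 0 passed in edgeR, DESeq2 or limma-voom, and 1 had an unadjusted p under 0.05 in each (in edgeR Flt1, lower in db/db with adjusted p = 0.0915).

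**Figure D3:**
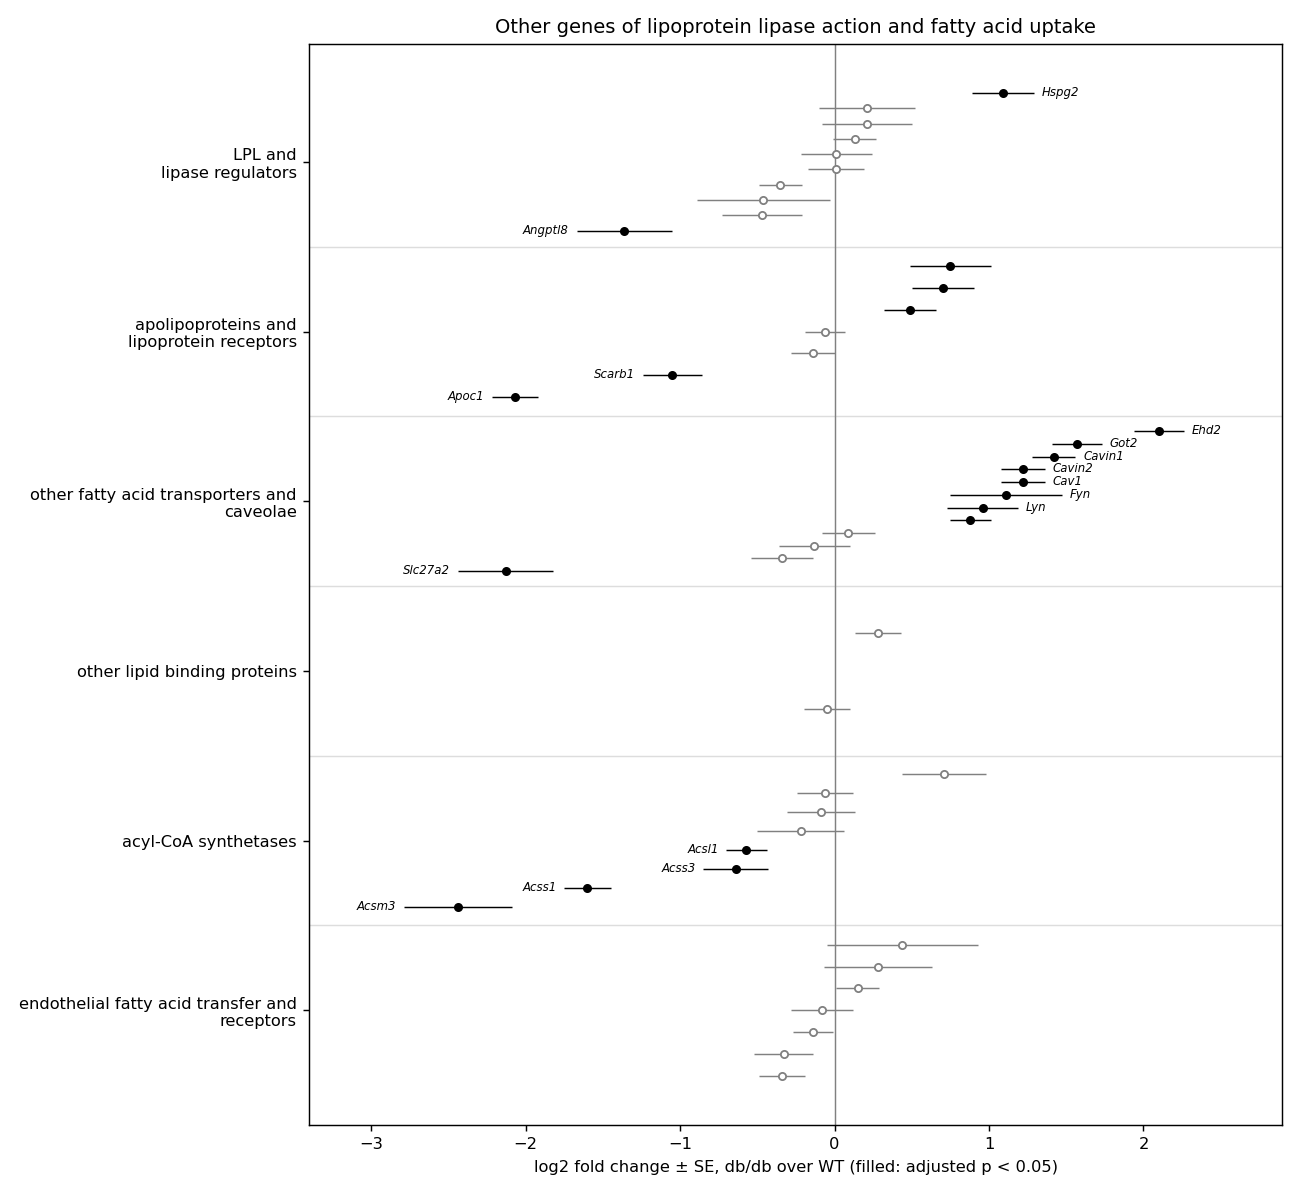
Log2 fold change ± SE of db/db over WT (edgeR) for the 46 other pathway genes that passed the filter, in 6 groups by role and sorted within each, filled where the adjusted p was under 0.05. The caveolar genes lay on the right, from Cav2 at 0.88 to Ehd2 at 2.10, and the called acyl-CoA synthetases on the left, from Acsl1 at -0.57 to Acsm3 at -2.44.

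Caveolae are membrane pits that are abundant in adipocytes and endothelium, and the genes named for them here are part of the group of fatty acid transport and caveolae and had no test of their own as a group. Ehd2, whose product holds caveolae at the membrane, measured 68.80, 54.44, 39.08 and 44.14 CPM in WT and 221.7, 219.8, 239.4 and 206.5 CPM in db/db, a log2 fold change of 2.10 ± 0.16 (SE, adjusted p = 7.83e-08, edgeR). Cavin1, the coat protein that caveolae need, rose from 571 ± 76.3 to 1530 ± 205 CPM, and caveolin 1 (Cav1) from 137 ± 15.1 to 319 ± 37.7 CPM. Cavin2 rose by 1.22 and Cav2 by 0.88 on the log2 scale. In each of these 5 genes every db/db library lay above every WT library, as in 15.3% of all genes tested. Got2, known as a mitochondrial aminotransferase and also as a fatty acid binding protein of the plasma membrane, rose by 1.57 on the log2 scale, with shared exon bases with Gm45760 and a near-identical copy, Got2-ps1. The kinases Fyn and Lyn, which act with CD36, had log2 fold changes of 1.11 and 0.96, but Fyn rested on 6 to 35 counts a library and passed in 3 of the 8 fits that left out a library. It did not pass in DESeq2 (adjusted p = 0.0621) or limma-voom (0.055), which each called 7 of the 12 genes of this group higher.

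Slc27a2, a fatty acid transporter of the same family as Slc27a1, fell by 2.13 on the log2 scale, from 56.3 ± 8.63 to 13.2 ± 7.43 CPM, and db/db replicate 1 was the lowest at 3.61 CPM. It shares exon bases with Gm26697 on the opposite strand. Slc27a4 (log2 fold change -0.34, adjusted p = 0.232, edgeR) did not pass, and Slc27a3, Slc27a5 and Slc27a6 were too low to test.

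Acyl-CoA synthetases, which trap fatty acids in the cell by joining them to coenzyme A, were lower or did not pass. Acsl1, the main long-chain enzyme of adipocytes, fell from 981 ± 133 to 661 ± 45.2 CPM, a log2 fold change of -0.57 ± 0.13 (SE, adjusted p = 0.0038, edgeR). The medium-chain enzyme Acsm3 fell by 2.44 and the mitochondrial acetate enzyme Acss1 by 1.60 on the log2 scale, both without overlap between genotypes. Acss3 fell by 0.64 with overlap and passed in 4 of the 8 fits that left out a library. These 4 genes share exon bases with genes on the opposite strand (Gm45244, Eri2, E130215H24Rik and Ppfia2). Among those that did not pass, Acsl4, which prefers arachidonic acid, measured 11.8 ± 2.97 CPM in WT and 19.4 ± 5.92 CPM in db/db, a log2 fold change of 0.71 (adjusted p = 0.0554, edgeR).

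Among lipoprotein genes, Apoc1, an apolipoprotein that restrains lipase and lipoprotein uptake, measured 474.7, 529.7, 523.1 and 519.1 CPM in WT and 113.4, 116.1, 97.07 and 159.6 CPM in db/db. The 2 genotypes were far apart, with a log2 fold change of -2.07 ± 0.15 (SE, adjusted p = 3.64e-08, edgeR). Scarb1, the receptor for high-density lipoprotein, fell by 1.05 on the log2 scale, while the endocytic receptor Lrp1 and the receptor chaperone Lrpap1 rose by 0.49 and 0.70 in edgeR, though Lrp1 did not pass in DESeq2 (adjusted p = 0.0585). Apoe was not separated (log2 fold change -0.14, adjusted p = 0.496, edgeR). Of the other lipase regulators, Angptl8, which acts on LPL together with other ANGPTL proteins, fell from 14.0 ± 2.09 to 5.36 ± 2.14 CPM (log2 fold change -1.36), and the heparan sulfate proteoglycan Hspg2 rose from 37.5 ± 7.04 to 79.9 ± 21.6 CPM (log2 fold change 1.09). With a skeletal muscle score in the model, Lyn, Angptl8 and Acsl1 no longer passed at log2 fold changes of 1.06, -1.11 and -0.70 (edgeR adjusted p = 0.138, 0.282 and 0.0887). Fyn, Hspg2, Scarb1, Acss3, Lrp1 and Lrpap1 no longer passed at smaller ones of 0.60, 0.61, -0.54, -0.27, 0.32 and 0.32 (edgeR adjusted p from 0.331 to 0.764).

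Ratios within a library, which do not depend on library scaling, were compared for 7 pairs chosen for their roles. Angptl4 stood to Lpl at a log2 ratio of -3.25 ± 0.30 in WT libraries and -2.53 ± 0.15 in db/db libraries (SD, n = 4), a difference of 0.72, and that of Gpihbp1 to Lpl was -5.59 ± 0.31 and -4.91 ± 0.20, a difference of 0.68. Cd36 stood to Slc27a1 at a log2 ratio of 2.82 ± 0.43 in WT and 4.17 ± 0.32 in db/db, a difference of 1.35. Lpl stood to the summed adipocyte markers at -0.71 ± 0.20 in WT and -1.20 ± 0.21 in db/db on the log2 scale. In these 4 ratios the genotypes did not overlap, and the exact two-sided permutation test gave p = 0.0286, the smallest that 4 against 4 samples allow, or 0.05 after adjustment over the 7 ratios, which does not pass. The ratio of Fabp3 to Fabp4 (difference 1.15) and that of Gpihbp1 to the summed endothelial markers (difference 0.32) overlapped, each with an exact permutation p of 0.0571 and 0.0667 adjusted. For Fabp5 to Fabp4 the difference was -0.11 (exact permutation p = 0.829), and its sign changed without db/db replicate 2 or 3.

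**Figure D4:**
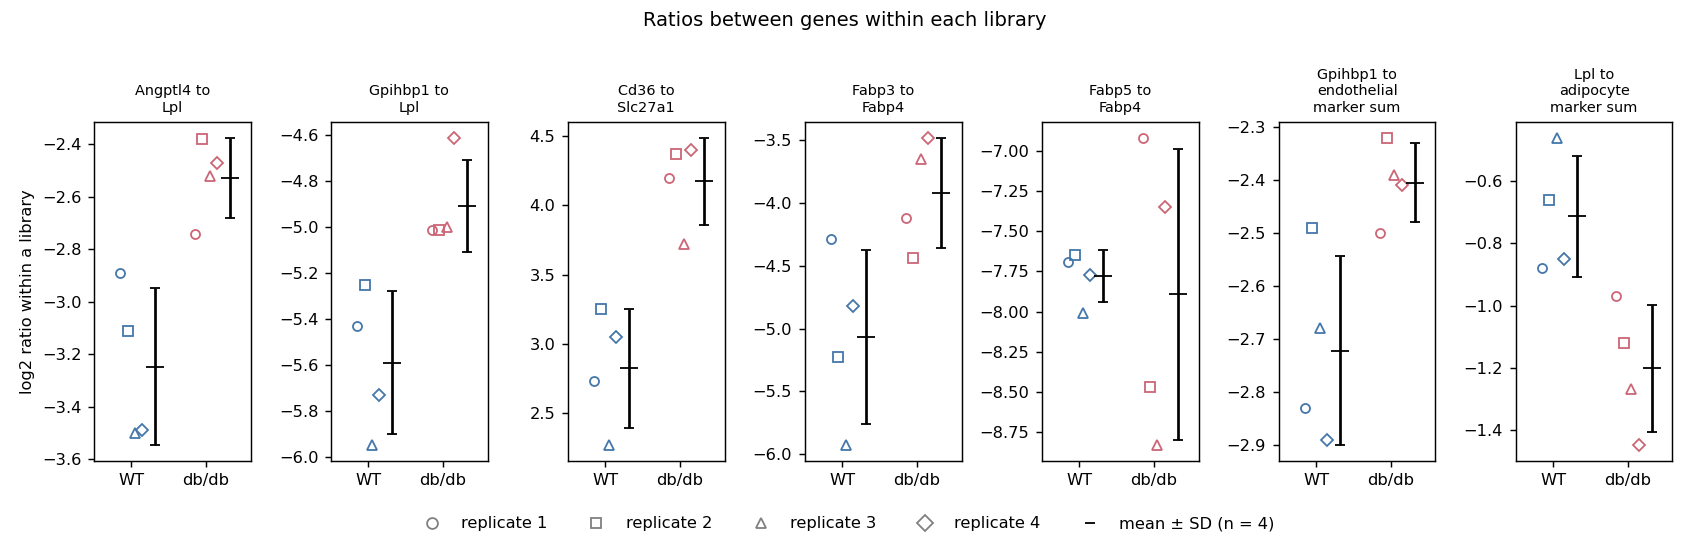
Log2 ratio of 2 gene levels, or of a gene to a summed marker list, within each of the 4 WT and 4 db/db libraries (axes differ between panels and do not start at 0), with the symbol marking the replicate and the black bar the mean ± SD of 4. The ratios of Angptl4 and Gpihbp1 to Lpl and of Cd36 to Slc27a1 were higher in every db/db library than in any WT library, and that of Lpl to the adipocyte markers was lower.

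Markers of other cell types moved with genotype beside these changes. The summed level of 20 skeletal muscle markers lay between 496.1 and 1800 CPM in WT libraries and between 2670 and 13339 CPM in db/db libraries, and all 20 were called higher. No muscle marker was at 0 in any library, the lowest being Myh2 with 4 counts in a WT library. Of 15 macrophage markers, 14 were tested and 13 called higher, their sums lying between 181.1 and 236.3 CPM for WT and between 891.4 and 1574 CPM for db/db. Trem2, a marker of lipid-laden macrophages, had at most 1 count in a WT library and at least 10 in a db/db library. All 10 fibroblast markers were called higher (sums from 1284 to 2034 and from 3261 to 5421 CPM), and 4 of 5 white adipocyte markers (106.4 to 320.9 and 1880 to 2895 CPM). In contrast, 6 of 7 tested brown adipocyte markers of 9 listed were called lower (sums between 9444 and 11216 CPM for WT, 3933 and 7017 CPM for db/db). Sums of the 8 adipocyte markers (7219 to 8281 against 7434 to 8723 CPM) and of the 12 endothelial markers (589.9 to 695.2 against 529.4 to 666.0 CPM) overlapped between genotypes, with Plin1 called higher and Adrb3 lower among the former, and Aqp1 higher and Kdr, Tek and Emcn lower among the latter.

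Several of the 10 genes are made by more than 1 of these cell types. Fabp3, a gene of muscle as well as of brown adipocytes, measured 602.0, 698.6, 1039 and 909.9 CPM in db/db replicates 1 to 4, where the muscle sums were 13339, 3637, 5944 and 2670 CPM. Its order among db/db libraries was neither that of the muscle sum nor the reverse of it, and the part of muscle in Fabp3 was not tested. That order was the same as for the adipocyte marker sum, from 7434 CPM in replicate 1 through replicates 2 and 4 to 8723 CPM in replicate 3. Among WT libraries the 2 orders differed, and the part of adipocytes in Fabp3 was not tested. With a skeletal muscle score as a term in the model, Fabp3 had a log2 fold change of 2.03 (adjusted p = 0.000138, edgeR). Under the same term the other 5 called genes no longer passed, with log2 fold changes of -0.67 for Lpl (adjusted p = 0.158), 0.36 for Cd36 (0.458), -0.99 for Slc27a1 (0.209), -0.52 for Vldlr (0.252) and 0.62 for Fabp4 (0.399). Fabp5, not called in either model, went from 0.68 to 0.14 (adjusted p = 0.904), and the count over all genes fell from 2568 to 579. The muscle sums of the genotypes do not overlap, so this term and genotype share much of their variation.

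Cd36, Fabp4, Fabp5 and Lpl can also be made by macrophages. Among db/db libraries the order of Fabp5, from 27.93 CPM in replicate 3 through replicates 2 and 4 to 85.74 CPM in replicate 1, was that of the macrophage sum, from 891.4 to 1574 CPM, and the part of macrophages in Fabp5 was not tested. Among WT libraries it was not, since replicate 1, with the highest macrophage sum (236.3 CPM), had the least Fabp5 (23.88 CPM). Cd36 did not follow that order, since replicate 4, with a macrophage sum of 1347 CPM, had the least Cd36 (495.9 CPM). Fabp4 was lowest in db/db replicates 4 and 1 (10157 and 10465 CPM), the libraries with the highest macrophage sums, and Lpl was lowest in replicate 4 (3005 CPM) and highest in replicate 1 (3796 CPM). Lpl and Fabp4 were highest among WT libraries in replicate 3, which also held the most white adipocyte marker RNA of WT (320.9 CPM), and whether the one bears on the other was not tested. That library also had the highest fibroblast sum (2034 CPM) and the lowest brown adipocyte sum (9444 CPM) of WT. Among db/db libraries the white adipocyte sum was highest in replicate 3 (2895 CPM), where neither Lpl nor Fabp4 was highest. With WT replicate 3 and db/db replicate 1 left out together, 6 of the 10 genes passed, 3 in each direction.

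**Figure D5:**
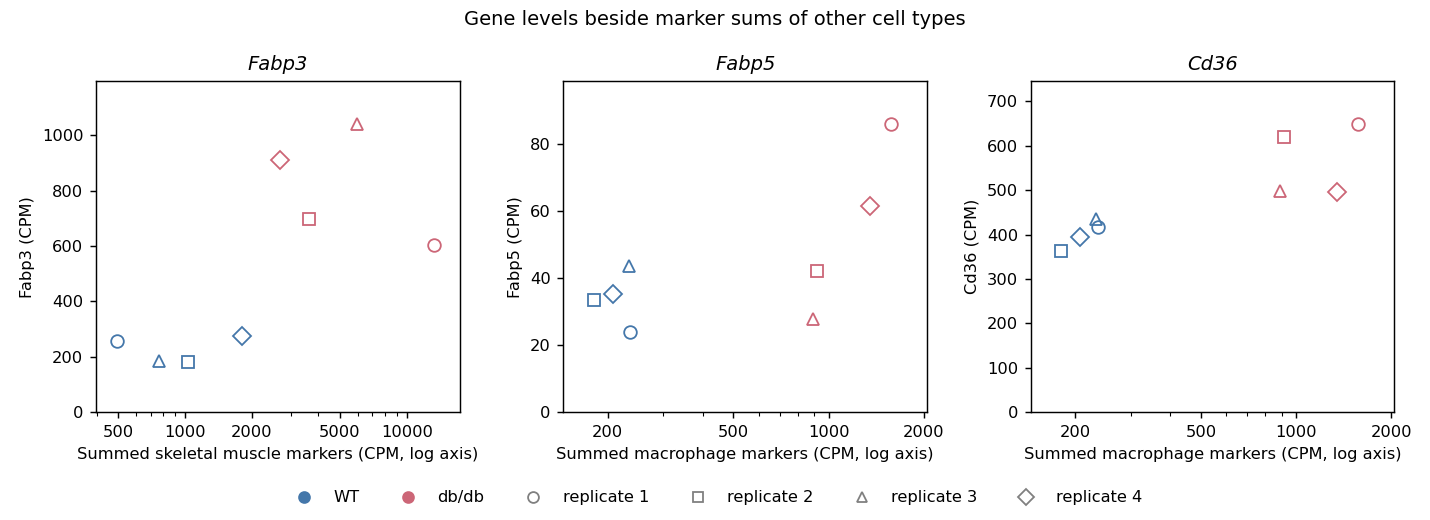
Level of Fabp3, Fabp5 and Cd36 (CPM, axes from 0) against the summed skeletal muscle or macrophage markers of the same library (CPM, log axis) in 4 WT and 4 db/db libraries, with the symbol marking the replicate. Marker sums separated the genotypes in each panel; among db/db libraries Fabp5 followed the order of the macrophage sum, which it did not among WT libraries, and Fabp3 did not follow the order of the muscle sum.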

How the data were processed

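Bulk RNA-seq of BAT was analysed from 4 WT and 4 db/db samples, with genotype and replicate number taken from the sample titles. Per the methods, single-end libraries were made by a commercial service, and reads were trimmed with bbduk, aligned to mm10 with STAR and counted per gene with HTSeq-count. The submitters' processing notes name Trimmomatic, HISAT2 and DESeq2 and the builds GRCm38 and mm10 instead, so the aligner behind the table is uncertain. The authors deposited raw counts per Ensembl gene, which were used here, and also log2 normalised values and a sample sheet, which were not used. Strand use and molecular identifiers are not stated, so PCR copies may be counted, and detection floors cover counting error only. No sample pair of a genotype was close enough to be a repeated library.

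Symbols were matched by identifier to GENCODE M21 for 30934 genes, while 119 without a match carried no more than 0.00758% of a library. Mitochondrially encoded genes took between 30.7% and 37.6% of counts. Genes were filtered by filterByExpr (minimum count 10, minimum total 15), scaled by TMM and tested in edgeR 4.0.16 (R 4.3.3) by its quasi-likelihood test, genotype being the only term, with Benjamini-Hochberg adjustment over the 9264 genes tested. CPM values are scaled by the TMM library size. On data simulated for this comparison, 200 genes were given a log2 change of 2. Among 9083 genes tested there, 188 of 189 changed genes were recovered, with 12 false calls. Where nothing was changed, 0 of 9094 were called. Recovery at smaller log2 fold changes, such as those of most of the 10 genes, was not tested. Ratios used a prior count of 2 and an exact permutation test over samples.

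The other pathway genes named are, in each direction, the up to 8 with the largest absolute log2 fold change among those with adjusted p under 0.05 and a mean of at least 5 CPM. Outside that rule, Cav2, Lrp1, Lrpap1, Slc27a4, Flt1, Acsl4 and Apoe were named after their values were seen, as were the untested Slc27a3, Slc27a5, Slc27a6, Apoc3, Apoc4, Fabp1, Fabp2 and Fabp6. The 10 genes, the lists and the tests were chosen with earlier results of these data known. Alternatives were DESeq2 1.42.0, limma-voom (limma 3.58.1), other scalings and filters, a skeletal muscle score as a covariate (the mean standardised log2 level of its 20 markers), the replicate number as a block, other prior counts for the ratios and leaving out each library. Leaving out WT replicate 3 and db/db replicate 1 together was added after the data were seen. Samples of a genotype are separate biological replicates per the design text, and same-numbered samples of the 2 genotypes are different animals.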

Additional observations from a re-analysis of the deposited data

Results flagged for a closer look

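The log2 ratio of Gpihbp1 to Lpl stood apart in db/db replicate 4, at -4.61, while the other 3 db/db libraries lay between -5.01 and -5.00. Of 80 sets of 4 samples examined in this way, 1 stood out, where chance alone would give about 4. That library had the most Gpihbp1 (122.0 CPM) and the least Lpl (3005 CPM) of the db/db samples.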

How the results depend on the processing

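Over 10 alternatives of test, scaling, filter and covariate, the 10 genes gave 100 values, of which 90 kept their direction and side of the threshold. When the skeletal muscle score was a covariate, 579 genes differed (434 higher, 145 lower), 1 of the 10 genes was called (Fabp3, 1 higher and 0 lower), and 10 other pathway genes were called (6 higher, 4 lower); higher calls then made up 75.0% of calls against 57.1%. Lmf1 changed sign under DESeq2 (0.00), with every gene that had a count (-0.02), with the muscle score (-0.40), and without WT replicate 3 and db/db replicate 1 (-0.04). Fabp5 passed in 2 of the 10 alternatives, with every gene that had a count (adjusted p = 0.00613, edgeR) and with at least 10 counts in every sample (0.0482), and did not in the other 8, where its log2 fold change ran down to 0.14 with the muscle score. DESeq2 called 2694 genes, limma-voom 2538 and the strictest filter 2018.

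Leaving out each library in turn, the genes called ran from 2236 to 2483 (1281 to 1435 higher, 889 to 1056 lower), the members of the 10 called from 4 to 6 (1 to 3 higher, 2 to 3 lower), the lowest count of higher members coming without WT replicate 2, and the other pathway genes called from 16 to 19. Lmf1 ran from -0.05 to 0.14. The log2 ratio differences ran from 0.64 to 0.84 for Angptl4 to Lpl, from 0.56 to 0.79 for Gpihbp1 to Lpl, from 1.16 to 1.50 for Cd36 to Slc27a1, from 0.86 to 1.41 for Fabp3 to Fabp4, from -0.44 to 0.20 for Fabp5 to Fabp4 and from -0.57 to -0.40 for Lpl to the adipocyte markers. Without WT replicate 1, the library that made Fabp3 to Fabp4 overlap, 5 of these ratios reached an adjusted p of 0.04 in the exact permutation test. Each stood at the smallest p that the samples left allow, so this adjusted value was set by the number of ratios there.

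A block for replicate number left 2557 genes, 6 of the 10 genes and 21 other pathway genes called. Deviations of same-numbered samples correlated between -0.08 and 0.05, so the numbers do not pair the samples. In same-numbered pairs the ratios could not go below p = 0.125 by exact sign flips. Of the 68 other pathway genes, 22 had too few counts to be tested.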

Other observations

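Of the lipoprotein genes too low to test, Apoc4 had 2, 0, 1 and 0 counts in WT replicates 1 to 4 and 24, 13, 4 and 8 counts in db/db. Apoc3 had 8, 7, 50 and 9 counts in WT and 8, 3, 0 and 2 in db/db, with the highest value in WT replicate 3. Apoc4 shares exon bases with Gm44805. Of the other fatty acid binding proteins, Fabp1, Fabp2 and Fabp6 had 0 counts in all 8 libraries.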
